A study of Komagataella pastoris with 15 samples.

Results

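The transcripts described here are those that stood highest in logarithmic growth when the yeast Pichia pastoris (labelled Komagataella pastoris), which can live on methanol, was grown in fed-batch culture. They were chosen by the deposited log2 values themselves. They number 48 of the 3915 probes for which the authors deposited a log2 value, or 1.23%, on an array of 5039 probes with 1 locus tag each. The cultures made recombinant human serum albumin (rhHSA) in fermentors of 40 L, numbered 1 to 3, and total RNA of each fermentor was hybridised to a single-colour Agilent array at each of 5 phases, 3 arrays a phase. The phases, in the order of the process, were logarithmic growth, the glycerol end (feeding stopped and 40 min without a carbon source), growth fully adapted to methanol, the peak of the rhHSA expression rate, and the end of fermentation, with rhHSA decreased to 220 mg/L. The labels name neither the strain nor the promoter of the albumin gene, and they give no other treatment. By the labels the groups thus differ by phase, and every group comes from the same numbered fermentors. The groups also differ in scan, as described below. The end of fermentation was on scan 1 only, so in the scanner values scan enters its differences from the other phases. How the authors' values treat scan in that phase is not given. Several sampling times stand in the protocol without being tied to phases and are not used here.

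A fed-batch culture of this yeast first multiplies on glycerol, then has glycerol withdrawn, and then is fed methanol, which it oxidises in peroxisomes. Fast growth on a good carbon source is known in budding yeasts for high transcript levels of ribosomal protein genes, ribosome assembly factors and biosynthetic enzymes, and entry into starvation lowers these together. Whether any of the 48 transcripts belongs to such a group was not tested: the only identifiers in the files are locus tags, and of the 5039 tags 0 were found in the reference gene table, which has 5305 rows. That table is of the assembly ASM170810v1 of Komagataella pastoris, whose genes carry tags of another system, whereas tags of the form on the array belong to the annotation of a strain now placed in Komagataella phaffii. The lack of matches is therefore one of tag systems and says nothing of the genes. The transcripts are therefore called by their tags, their functions are not described, and no phase could be checked by marker genes.

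A probe was chosen when its mean log2 value over the 3 logarithmic growth arrays, in the authors' table, exceeded the highest of the other 4 phase means by at least 0.8. This distance is called the excess below. In addition the end of fermentation had to lie less than 1 below the lowest of the other phases, and methanol adaptation less than 0.8 below. The excess alone was met by 52 probes, and 4 of these were left out, 2 by each limit, with an excess between 0.88 and 1.22. All differences from logarithmic growth are thus what the choice rested on and are given as a description, with no test. The limits also touch the differences of methanol adaptation and the end of fermentation from the other phases, which are treated in the same way.

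The arrays came from 2 scans. On scan 1 were 7 arrays, those of fermentor 1 in every phase before the end of fermentation and the 3 from that last phase, and the remaining 8 were on scan 2. Signals of the 48 members on scan 2 differed from those on scan 1 by -1.06 to 1.5 log2 units in the scanner values (SD over members 0.61, against 0.73 over all probes). The authors' values had been freed of this difference on average over the phases with arrays on both scans. The end of fermentation allows no such check. In logarithmic growth, the arrays of fermentors 2 and 3 were closer to each other than repeat spots are. Their difference was within sampling noise, with 1.94% of probes beyond the spread of spots. Other pairs on 1 scan had 51.4% at the rhHSA peak and 55.6% in methanol-adapted cells. The glycerol end pair (7.67%) and the end of fermentation pairs (6.70% to 8.85%) were far closer. Arrays of these 2 phases are still counted singly (n = 3), so their spread may understate that between cultures. Each mean ± SD of logarithmic growth averages its pair first and counts it as 1 sample, which gives n = 2. The fit given further on keeps all 15 arrays, and with that pair averaged it also called 15 members (31.2%, against 36.3% of all tags). Arrays labelled rhHSA peak correlated best with logarithmic growth on the same scan, at r from 0.969 to 0.977 over probes, against 0.943 to 0.949 with the glycerol end and 0.916 to 0.922 with methanol adaptation. Every value given for the rhHSA peak is that of the arrays so labelled. All 48 members were well above background on all 15 arrays, and 0 of their spots were saturated. Precision is limited by how few arrays there are and, where the scan difference is left in the error, by that difference too, since more of all tested tags were called with scan as a block (68.8%) than without it (38.1%) in the fit given further on.

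The excess of the members ran from 0.80 to 1.99 with a median of 0.97, so that logarithmic growth stood 1.75-fold to 3.96-fold above the next phase, with a median of 1.96-fold. For 21 members it was at least 2-fold above every other phase. In each of the 48 members all 3 logarithmic growth arrays lay above all 12 other arrays in the authors' values. The choice was made on these same arrays and values, so this is a description and no test. The count was not made over all probes. The plot of all members by array shows logarithmic growth as a pale block at the left and blue elsewhere.

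**Figure D1:**
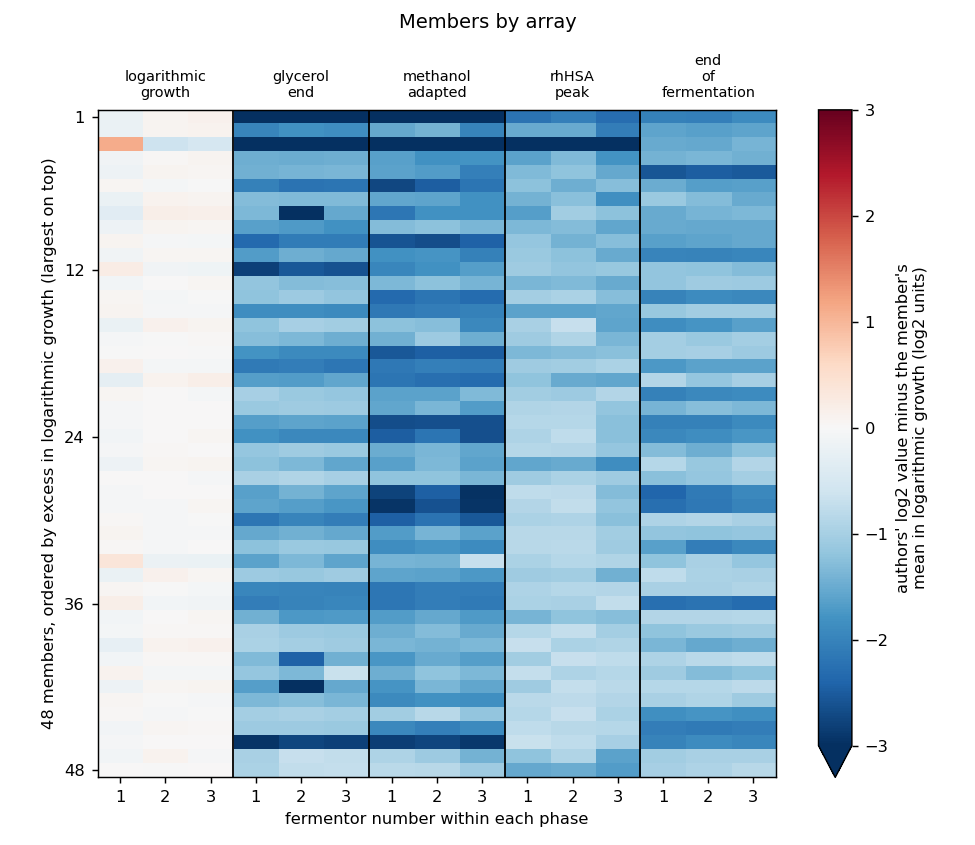
Authors' log2 values of the 48 members (rows, largest excess on top) on the 15 arrays (columns, fermentors 1 to 3 within each phase), each minus the member's mean in logarithmic growth; colours are cut off at 3 log2 units on either side. Every member is palest or red in logarithmic growth, and the blue of the other phases is lightest on most rows in the arrays labelled rhHSA peak.

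The distance below logarithmic growth differed by phase. Its median over the members was -1.53 log2 units at the glycerol end (range -5.48 to -0.80), -1.76 in methanol-adapted cells (-4.57 to -0.90), -1.06 in the arrays labelled rhHSA peak (-5.93 to -0.81) and -1.37 at the end of fermentation (-2.52 to -0.83). Over all 3915 probes of the table the same medians were 0.01, 0.04, 0.04 and 0.03. Methanol-adapted cells thus lay farthest below and the arrays labelled rhHSA peak closest, in the median. The 5th percentiles over all probes were -1.35, -1.69, -0.93 and -1.54 in the same order of phases. Methanol adaptation thus also reached farthest down over all probes and the rhHSA peak least, so this order is not particular to the members. At least 2-fold below logarithmic growth were 45 members at the glycerol end, 47 in methanol-adapted cells, 28 in the arrays labelled rhHSA peak and 38 at the end of fermentation. Neither these counts nor those of the second and lowest phases below were made over all probes, so they describe the members only.

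**Figure D2:**
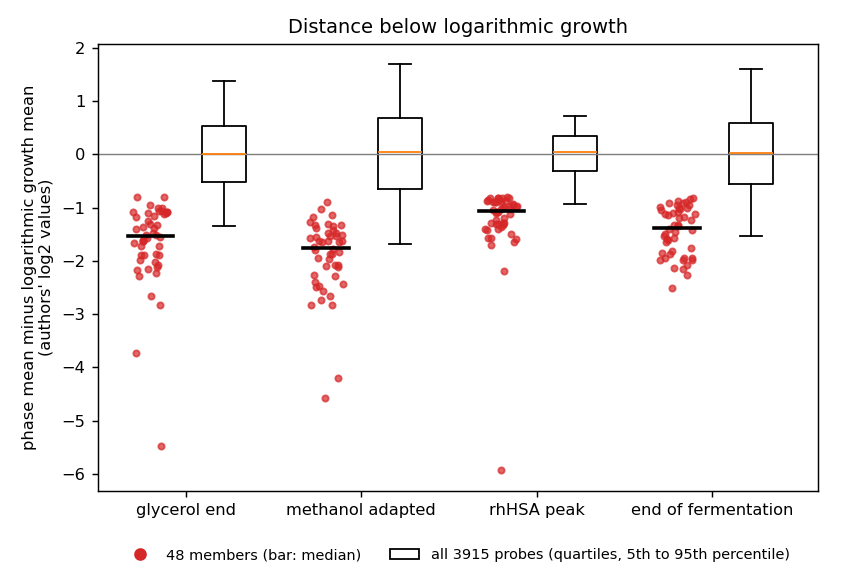
Phase mean minus logarithmic growth mean, in log2 units of the authors' values, for the 48 members (points, bar at the median) and all 3915 probes (box at the quartiles, whiskers from the 5th to the 95th percentile). The members' medians are -1.53, -1.76, -1.06 and -1.37 for the glycerol end, methanol adaptation, the rhHSA peak and the end of fermentation.

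The phase that came second was the rhHSA peak for 28 members, the end of fermentation for 14, the glycerol end for 5 and methanol adaptation for 1. The lowest phase was methanol adaptation for 24 members, the glycerol end for 10, the end of fermentation for 9 and the rhHSA peak for 5. The 10 include PAS_chr2-2_0045 and PAS_chr1-4_0268, for which methanol adaptation was lowest in the scanner values, as described at the end. Others of the 10 changed too. In the scanner values methanol adaptation was slightly below the glycerol end for PAS_chr1-4_0513 (mean -4.99, against -4.88) and PAS_chr3_0792 (-2.17, against -2.09). PAS_chr3_1084 kept the glycerol end as lowest (-0.20). How many of the 10 changed was not counted. Scanner values on scan 1 alone, where all phases have at least 1 array, gave a like order at the top, with the rhHSA peak second for 31 members, the end of fermentation for 9, the glycerol end for 7 and methanol adaptation for 1. At the bottom methanol adaptation was again lowest for 24 members, but the end of fermentation was lowest for 18, against 9 in the authors' table, the glycerol end for 4 and the rhHSA peak for 2. The median distance of the end of fermentation below logarithmic growth was -1.77 on scan 1, against -1.37 in the authors' values. How low the end of fermentation stands thus depends on which values are read. On scan 1 both phases share a scan, so no scan difference enters there, but logarithmic growth rests on 1 array. Why the authors' values give a smaller distance was not tested.

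Members differed in how level the 4 later phases were. The span between the highest and the lowest of these phases had a median of 0.97 log2 units, and ran from 0.28 to 4.44. It was under 0.5 for 8 members, which stood at nearly 1 level after logarithmic growth, and at least 2 for 3 members.

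PAS_chr1-4_0634 had the largest excess, 1.99. Its log2 signal after subtraction of its array's 75th percentile (the scanner value in what follows) was -0.80, -1.26 and -1.21 in logarithmic growth, -3.94, -6.08 and -4.18 at the glycerol end, -5.14, -5.83 and -5.01 in methanol-adapted cells, -2.82, -3.43 and -3.46 in the arrays labelled rhHSA peak, and -2.78, -2.79 and -2.82 at the end of fermentation, fermentors 1 to 3. Logarithmic growth overlapped with no other phase, the 2 last phases lay in the middle, and fermentor 2 was far lower than the others at the glycerol end. It was 1 of the 3 members with a span of at least 2, and a member numbered 2 below it, PAS_chr1-4_0632, had an excess of 1.32.

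PAS_chr1-4_0513 came next with an excess of 1.60 and was level in the later phases. In the same unit it had -2.88, -3.22 and -3.21 in logarithmic growth, -4.77, -4.91 and -4.94 at the glycerol end, -4.64, -5.01 and -5.32 in methanol-adapted cells, -4.44, -4.82 and -5.16 in the arrays labelled rhHSA peak, and -4.89, -4.92 and -4.99 at the end of fermentation. The 4 later phases overlapped with each other, and none reached logarithmic growth.

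PAS_chr2-1_0015, singled out after its values were seen, had the widest span of the later phases, 4.44 in the authors' values. Its scanner values were -1.40, -1.92 and -1.77 in logarithmic growth, -8.12, -6.20 and -6.13 at the glycerol end, -8.42, -5.59 and -5.13 in methanol-adapted cells, -8.49, -6.78 and -7.32 in the arrays labelled rhHSA peak, and -4.39, -4.42 and -4.46 at the end of fermentation. The 3 middle phases were near the low end of the signal range and overlapped, and the end of fermentation stood between them and logarithmic growth. Its excess was 1.49 in the authors' values and 2.73 in the scanner values, so its size is uncertain although its sign was the same. In the authors' values the excess was 2.63 in fermentor 1, on scan 1 in logarithmic growth, but 0.92 and 0.91 in fermentors 2 and 3. In the scanner values it was 3.02 on scan 1, and 3.52 on scan 2, which holds no end of fermentation array.

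**Figure D3:**
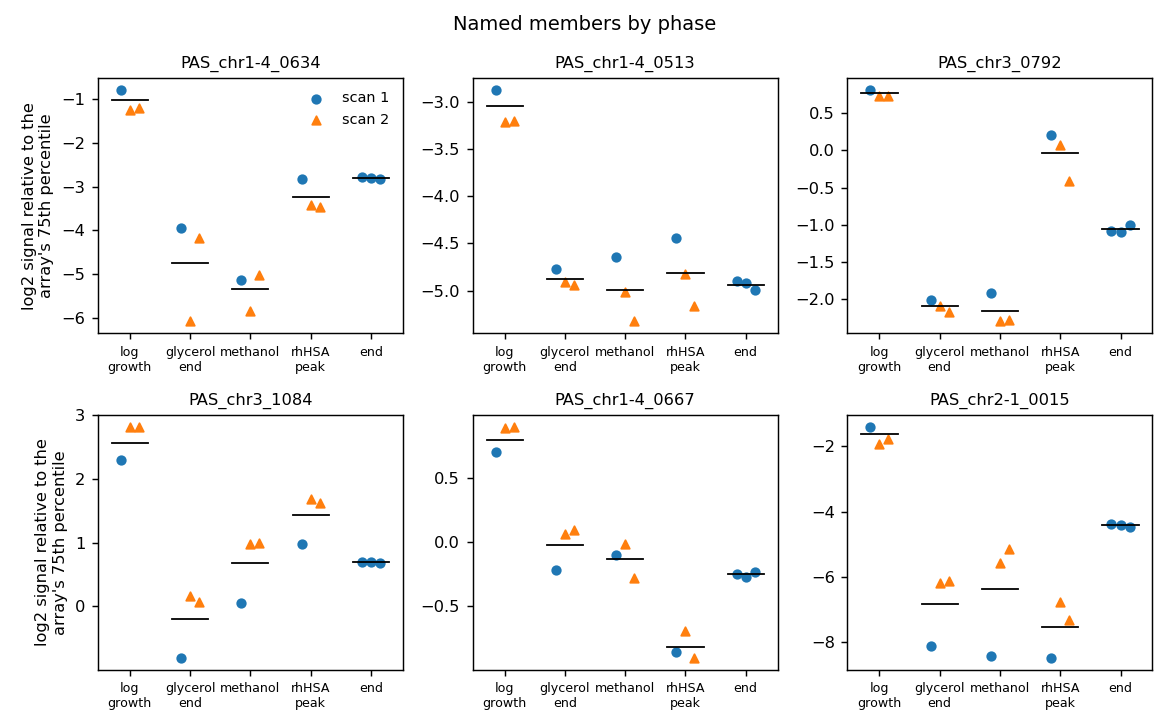
Scanner values (log2 signal minus each array's 75th percentile) of 6 members at the 5 phases, fermentors 1 to 3 from left to right within a phase; circles are arrays of scan 1, triangles arrays of scan 2, and bars the phase means. Logarithmic growth lies above every other phase in each panel. By its mean the rhHSA peak is second in PAS_chr3_0792, PAS_chr3_1084 and, by little, PAS_chr1-4_0513. It is lowest in PAS_chr1-4_0667 and PAS_chr2-1_0015.

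The threshold cut through a continuous range. Just inside it stood PAS_chr1-4_0667 and PAS_chr3_0096 with an excess of 0.803 and 0.804, and just outside PAS_chr4_0240 and PAS_chr2-1_0401, whose excess of 0.80 (under the threshold before rounding) and 0.798 kept them out. Within 0.05 above the threshold lay 10 members, and within 0.05 below it 11 probes. PAS_chr4_0240 averaged 12.97 in logarithmic growth in the authors' values, against 12.13 in the arrays labelled rhHSA peak and 12.17 at the end of fermentation.

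The excess was present in each fermentor and in each scan taken alone. In the authors' values it was above 0 for 48 of 48 members in fermentors 1, 2 and 3, with medians of 0.92, 0.90 and 1.04, and reached 0.8 for 38, 35 and 43 of them. In the scanner values of scan 1 it was again above 0 for all 48, with a median of 1.05 and a range of 0.60 to 3.02. On scan 2, which holds no end of fermentation array, it was above 0 for all 48, with a median of 1.00 over the glycerol end, methanol adaptation and the rhHSA peak. These are the arrays the choice was made on, so this is a description of how the excess was spread over fermentors and scans, not a test.

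The difference between the arrays labelled rhHSA peak and the glycerol end was not itself a criterion, but the choice rested on the means of these same arrays and so leans it to one side. Over all 3915 probes the arrays labelled rhHSA peak lay closer to logarithmic growth (5th percentile of the difference -0.93) than the glycerol end did (-1.35). Probes chosen for lying well below logarithmic growth in both phases therefore tend to stand just under the limit in the rhHSA peak and farther down at the glycerol end, with members' quartiles of -1.33 and -0.90 for the rhHSA peak and of -1.92 and -1.11 for the glycerol end. The members' counts and medians are for that reason a description, given beside those of all tags, and nothing is read from their direction. The difference was fitted with limma on the scanner values over all tags, and a tag was called when its adjusted p was under 0.05. Both phases have 1 array on scan 1 and 2 on scan 2. The arrays labelled rhHSA peak were higher for 14 of the 48 members and lower for 1, and 33 were not called. Calls in both directions made up 31.2% of the members, against 38.1% of the 5024 tags tested. By direction, 29.2% of the members were called higher, against 17.5% of all tested tags, and 2.08% were called lower, against 20.6%.

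The median fitted difference over the members was 0.22 log2 units, against -0.03 over all tested tags. It was above 0 for 36 members (75%), against 48.4% of all tested tags. Taking each fermentor by itself, the arrays labelled rhHSA peak were above the glycerol end in all 3 fermentors for 27 members (56.2%, against 36.5% of the 4393 tags measured on each of the 6 arrays) and below it in all 3 for 7 (14.6%, against 43.3%). How much of these figures comes from the choice of the members was not tested.

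**Figure D4:**
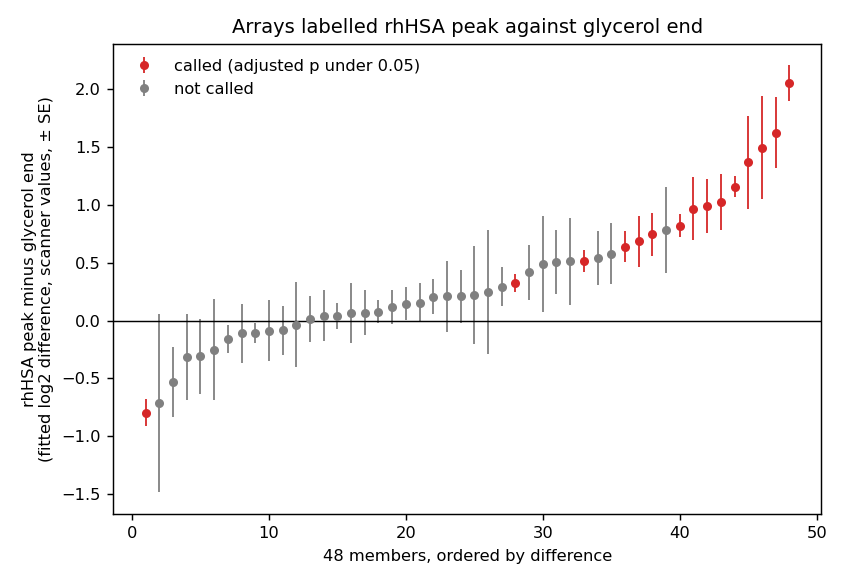
Fitted log2 difference, rhHSA peak minus glycerol end, for the 48 members in order of size, with bars of 1 SE on either side; red points were called by limma at an adjusted p under 0.05. Of the 48, 14 are red above 0 and 1 is red below 0, with fitted differences up to 2.05.

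Of the 14 members called higher, with differences of 0.32 to 2.05, PAS_chr3_0792 rose most. It had 0.21, 0.08 and -0.41 in the arrays labelled rhHSA peak, against -2.01, -2.10 and -2.17 at the glycerol end, in scanner values on the log2 scale. The groups did not overlap, and the means were -0.04 ± 0.33 and -2.09 ± 0.081 (SD, n = 3 each). The fitted difference was 2.05 ± 0.15 (SE), or 4.16-fold, with a limma adjusted p of 9.34e-07. It stood at 0.77 ± 0.060 in logarithmic growth (SD, n = 2), -2.17 ± 0.22 in methanol-adapted cells and -1.06 ± 0.052 at the end of fermentation (SD, n = 3 each), so that it was low at both the glycerol end and methanol adaptation.

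PAS_chr3_1084 had 0.97, 1.68 and 1.63 in the arrays labelled rhHSA peak, against -0.82, 0.15 and 0.06 at the glycerol end. Fermentor 1, on scan 1, was lower than the others in both phases, and the groups did not overlap. The fitted difference was 1.63 ± 0.31 (SE), or 3.09-fold (limma adjusted p = 0.00129). Its excess was 1.12. The glycerol end averaged -0.20 ± 0.54, methanol-adapted cells 0.67 ± 0.53, the arrays labelled rhHSA peak 1.43 ± 0.39 and the end of fermentation 0.69 ± 0.0072 (SD, n = 3 each), so that the glycerol end was its lowest phase.

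PAS_chr1-4_0634, the member with the largest excess, was also higher in the arrays labelled rhHSA peak, by 1.5 ± 0.45 (SE), or 2.82-fold (limma adjusted p = 0.0195). Its call was lost without fermentor 1 of the rhHSA peak (difference 1.29, limma adjusted p = 0.0688) and in a limma fit of the 6 arrays of both phases alone (adjusted p = 0.116). Its size turned most on fermentor 2 of the glycerol end, without which the difference was 0.83 (limma adjusted p = 0.0323). For PAS_chr1-4_0513 the difference was 0.07 ± 0.19 (SE; limma adjusted p = 0.824). PAS_chr2-1_0015 had the lowest difference among members not called, -0.71 ± 0.77 (SE; limma adjusted p = 0.514), which ran from -1.36 to -0.23 as 1 array was left out and was 0.15 with normexp background correction.

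PAS_chr1-4_0667 was the member called lower. It had -0.86, -0.70 and -0.91 in the arrays labelled rhHSA peak, against -0.22, 0.06 and 0.09 at the glycerol end, with no overlap. The fitted difference was -0.80 ± 0.11 (SE), so that the glycerol end was 1.74-fold higher (limma adjusted p = 0.000148). It is among the 5 members whose lowest phase was the rhHSA peak, and its end of fermentation arrays stood at -0.25, -0.28 and -0.23. PAS_chr3_0096 was not called, at -0.53 ± 0.30 (SE; limma adjusted p = 0.201). Leaving out fermentor 3 of the rhHSA peak gave -0.29 and leaving out fermentor 1 gave -0.78, and normexp background correction gave 0.0532. With the fermentor as a replicate block its limma adjusted p was 0.0179, and with scan as a block 0.00309. Blocking by fermentor alone called 18 members higher and 2 lower, against 25.4% and 29.5% of all tested tags (55.0% in both directions).

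With scan as a block, which takes the difference between scans out of the error, 23 members were called higher and 5 lower, against 32.6% and 36.2% of all tested tags (68.8% in both directions). All 15 calls of the unblocked fit were among these, each in the same direction. The members' share was then 58.3% in both directions and 47.9% higher.

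The tags of the members were spread over the prefixes that name pieces of the genome in this tag system. The prefix PAS_chr2-1 held 11 members (1.67% of its probes in the table), PAS_chr1-4 held 9 (1.69%), PAS_chr1-1, PAS_chr2-2 and PAS_chr3 held 7 each (1.88%, 1.96% and 0.786%), PAS_chr4 held 5 (0.663%), and PAS_chr1-3 and PAS_FragB held 1 each. Among members of 1 prefix, 3 pairs were numbered at most 10 apart, 1 of them PAS_chr1-4_0632 and PAS_chr1-4_0634. Gene positions were not used here, so no distance in the genome is given.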

How the data were processed

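Per the labels, each array carried Cy3-labelled cRNA of 1 fermentor at 1 phase. The authors deposited scanner files with spot intensity, made with Agilent Feature Extraction 10.7.3.1 per the file headers (9.1 per the submitters' processing notes); the processed intensity is background-subtracted within the array. They also deposited log2 values for 3915 of 5039 probes, normalized in a way not given in the sources used here. Their column medians were 12.57 to 12.69. Correlations of a column with the scanner values of its array were 0.983 to 0.988, so the direction is settled. A correlation fixes neither the scale nor the centring. The members' median excess was 1.04 in the scanner values and 0.97 in the deposited log2 values. The mean difference between scans varied over probes with an SD of 0.0053 in these values, against 0.71 in the scanner values. It was taken over the phases before the end of fermentation. The scanner flags, 0 or 1, are other values the authors deposited.

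Members were found in the authors' log2 values. For the test, log2 of the processed signal minus the array's 75th percentile was averaged over a probe's 3 spots without flagged outliers (2.26% of values missing, 0 among the members). Tags with 2 or more spots well above background on every array of at least 1 phase were fitted with limma 3.58.1 in R 4.3.3 (5 phase means, 15 arrays, Benjamini-Hochberg). The fit was run on simulated data with independent errors for each array, no scan difference and no near-repeat arrays. That run checked its working only and cannot show how calls hold where scan enters the error. Python 3.11.15, pandas 2.3.3 and matplotlib 3.10.9 were used otherwise. SDs over 3 arrays include the scan difference in the scanner values. Alternatives changed the scaling, the background correction, the blocks, the filter, the threshold and the arrays.

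The members, the lists and the test were chosen with earlier results of these data known. Gene lists were not run because no tag had a name. Named tags are the 2 with the largest excess, the 2 largest called rises and up to 2 called falls, and the 2 nearest the threshold on each side. PAS_chr2-1_0015, PAS_chr2-2_0045, PAS_chr1-4_0632, PAS_chr1-4_0268 and PAS_chr1-1_0123 were added after their values were seen.

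Fermentor numbers in the labels pair the samples by culture. Same-numbered deviations from the rhHSA peak and glycerol end means correlated at 0.947, 0.820 and 0.540 for fermentors 1 to 3 in the scanner values, where scan enters, and at -0.391, 0.0283 and 0.0833 in the authors' values.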

Additional observations from a re-analysis of the deposited data

How the results depend on the processing

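Members called between the rhHSA peak and the glycerol end numbered 28 (26 higher, 2 lower; 58.3%) in the authors' values, with or without a scan block, where 77.7% and 76.0% of all 3915 probes were called. They numbered 28 (23 and 5) with scan as a block, alone or together with fermentor as a replicate block, against 68.8% and 69.1% of all tags. At 2-fold or more they numbered 6 (6 and 0; 12.5%, against 13.9%). With only the 6 arrays of both phases 9 were higher (18.8%, against 11.3%), and 2 were lower with fermentor alone as a replicate block. This pairing changed no other call of a named member than that of PAS_chr3_0096. Leaving out 1 array gave 13 to 15 calls, 12 to 14 higher and 1 lower. These were 27.1% to 31.2% of the members, against 31.6% to 36.8% of all tags. The counts stayed within 1.5 times in the other alternatives. Among them was median centring (15 higher, 1 lower, 33.3% of the members, against 33% of all tags). Quantile normalization gave 17 and 1 (37.5%, against 35.2%). Normexp on median signals gave 13 and 1 (29.2%, against 29%) and moved the median of all tags from -0.03 to 0.11. Median signals were used for lack of mean signals. Some fitted differences changed sign. Leaving out 1 array gave -0.12 to 0.24 for PAS_chr1-4_0513 (lowest without rhHSA peak array 1) and -0.0011 to 0.13 for PAS_chr2-2_0045 (lowest without rhHSA peak array 2), both near 0 with all arrays. With normexp PAS_chr2-2_0045 moved to -0.00316, PAS_chr3_0096 to 0.0532, against -0.53, and PAS_chr2-1_0015 to 0.15, against -0.71. Stricter thresholds and fewer arrays lower counts by construction; the cause of the other shifts was not tested.

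The rule gave 21 probes at an excess of 1.0 and 100 at 0.6. On scanner values it gave 64 of the same probes, 42 of them members (87.5% of the members, 65.6% of the 64), and 50 after quantile normalization, 35 of them members. Scan 1 alone gave 82, with 41 members. Leaving out 1 fermentor number gave 44 to 51, and averaging logarithmic growth arrays 2 and 3, chosen after seeing the data as were the fits by scan 1, normexp and the authors' values with a scan block, gave 44. Per array, 98.67% to 99.96% of probes were well above background.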

Other observations

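One member's glycerol end value in the authors' table goes with a single spot. PAS_chr2-2_0045 had 13.28, 10.64 and 13.10 at the glycerol end in the authors' values, fermentors 1 to 3, and so appeared far lower in fermentor 2. On that array its 3 spots had processed signals of 6.67, 2985 and 3005, and the spot at 6.67 was flagged as an outlier by the scanner software. Without flagged spots the scanner values were -1.17, -0.91 and -1.11 in the arrays labelled rhHSA peak, against -1.21, -1.08 and -1.12 at the glycerol end, a fitted difference of 0.08 ± 0.10 (SE; limma adjusted p = 0.601). With flagged spots kept, the difference was 1.07. Its place among the members does not turn on this value, since its excess of 1.31 is set by the rhHSA peak. Its lowest phase does turn on it. That phase was the glycerol end in the authors' values but methanol adaptation in the scanner values (mean -1.71, against -1.14 at the glycerol end). Of the 720 values of the members, 4 differed by over 0.8 between the authors' and the scanner values once the shared scan and array differences were taken off, and 2 of these were on glycerol end array 2. The other of these 2 was that of PAS_chr1-4_0268, whose lowest phase in the authors' values was likewise the glycerol end. Its scanner values were -2.46, -2.41 and -2.39 in methanol-adapted cells, against -2.19, -2.02 and -2.06 at the glycerol end. PAS_chr1-1_0123, a member called higher, was low on glycerol end array 2 in both sets of values. At the glycerol end its scanner values were -3.32, -5.11 and -2.86, and the authors' values 11.11, 9.28 and 11.23. All 15 calls among the members held without that array.

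The authors' table leaves out 1124 of the 5039 probes. In the scanner values 10 of these met the rule, with an excess of 0.83 to 1.27, and all 10 were well above background on all 15 arrays.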
